A study of Raphidocelis subcapitata with 45 samples.

Results

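Transcripts of 34 genes of the green alga Raphidocelis subcapitata stood near the solvent control at every middle sertraline concentration and well above it at the highest one, 30623 µg/L. The genes were chosen by their measured values. The difference of the group mean from the control mean, on the log2 scale of the deposited table, had to lie within 0.4 of 0 at each of 784, 1960, 4900 and 12249 µg/L and to reach at least 1.2 at 30623 µg/L. A difference of 0.4 is 1.32-fold and one of 1.2 is 2.30-fold, if the scale is log2. The rule took 34 of the 7291 genes in the table, which are 4.67% of the 728 genes that reached 1.2 at 30623 µg/L.

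Raphidocelis subcapitata is a single-celled freshwater alga used as a standard organism in toxicity testing, and sertraline hydrochloride is a selective serotonin reuptake inhibitor taken as an antidepressant. Algae of a stock labelled Carolina Biological, in exponential growth, were kept for 24 h under constant light in deep-well plates without the drug (solvent control) or at 50, 125, 314, 784, 1960, 4900, 12249 or 30623 µg/L of it, all nominal. Every group received solvent (DMSO, per the design text), but the design text and the treatment protocol state different contents. Each group up to 4900 µg/L was measured in 5 libraries, lettered A to E. The table used here holds replicates A, B and C at 12249 µg/L and A, C and D at 30623 µg/L. RNA came from homogenates pooled over plates, and no separate cultures are named, so the spread between libraries may be technical.

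Sertraline is a cationic amphiphilic drug, a weak base with a lipophilic body. Such drugs can enter membranes and gather in acidic compartments of cells, and at high doses they can disturb membranes widely. The libraries were made by priming on poly(A) tails and sequencing the 3′ ends of messenger RNA. The values are relative to the other RNA of the same library, so more of a transcript per cell and less of the other transcripts cannot be told apart. The table gives genes by identifier only and no annotation was used here, so the genes are described by their values. Only Rsub_03098, the highest of the 34 at 30623 µg/L, and Rsub_12536, the most strongly expressed of the others, are named.

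At 30623 µg/L the differences from the control ran from 1.201 to 1.92 on the log2 scale, with quartiles of 1.25 and 1.53 and a median of 1.32, which is 2.51-fold. The median over all 7291 genes was -0.01. At 12249 µg/L the same 34 genes had a median of 0.24 and a highest value of 0.39. The step from 12249 to 30623 µg/L was thus between 0.87 and 1.86, with a median of 1.18. It was at least 1 in 28 of the 34 genes, against 404 of all 7291. The rule set both ends of this step, so these values describe the choice and were not tested.

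Rsub_03098 had the largest rise. Its level in the control libraries A to E was 4.48, 5.01, 4.77, 4.398 and 4.63 on the log2 scale, and at 12249 µg/L its values were 4.396 in A, 5.14 in B and 4.63 in C. At 30623 µg/L it was 6.01 in A, 6.62 in C and 7.12 in D. All 3 of these libraries lay above every other library of the series, and the nearest was 4900 µg/L replicate B at 5.57. The control mean was 4.66 ± 0.24 (SD, n = 5), and the mean at 30623 µg/L, 6.58 ± 0.56 (SD, n = 3), was 3.79-fold higher.

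The middle concentrations were less uniform for Rsub_03098 than its group means show. At 1960 µg/L its level was 3.27 in A, 5.50 in B, 3.62 in C, 4.30 in D and 4.77 in E, with a mean of 4.29 ± 0.89 (SD, n = 5). At 4900 µg/L it was 4.31 in A, 5.57 in B, 4.44 in C, 5.26 in D and 4.14 in E. These libraries reached both below and above the range of the control. The mean differences of -0.37 at 1960 and 0.09 at 4900 µg/L therefore average libraries that lay far apart. Replicate B was the highest at both concentrations.

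Rsub_12536 was expressed more strongly and rose by the least that the rule allows. Its level in the control libraries A to E was 5.09, 5.48, 5.27, 5.38 and 5.43. It was 4.79 in A, 4.85 in B and 5.40 in C at 12249 µg/L, and 6.12 in A, 6.82 in C and 6.66 in D at 30623 µg/L. The 3 libraries at 30623 µg/L lay above all others here as well, and the nearest was 1960 µg/L replicate B at 5.95. The control mean was 5.33 ± 0.16 (SD, n = 5), and the mean at 30623 µg/L, 6.53 ± 0.37 (SD, n = 3), was 2.30-fold higher.

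Before its rise Rsub_12536 lay slightly above the control at the low concentrations and slightly below it at the middle ones. Its mean difference from the control was 0.17 at 50, 0.22 at 125 and 0.16 at 314 µg/L, and turned to -0.11 at 784, -0.17 at 1960, -0.38 at 4900 and -0.32 at 12249 µg/L. The last 4 of these values are among those that chose the gene and had to lie within 0.4. Its step from 12249 to 30623 µg/L, 1.52, was larger than its difference from the control.

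**Figure D1:**
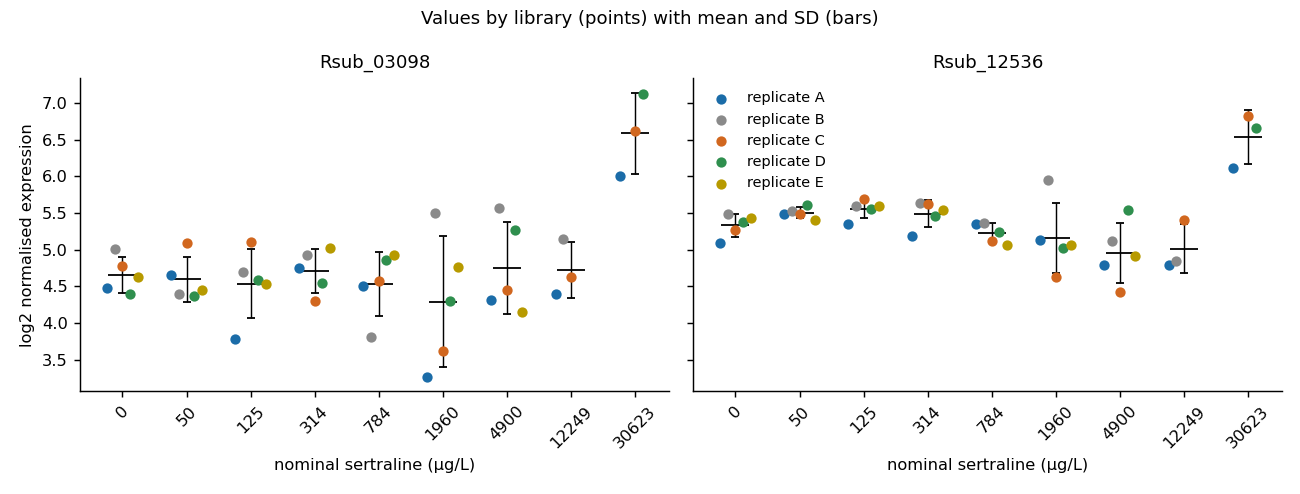
Log2 normalised expression of Rsub_03098 and Rsub_12536 (vertical axis) at each nominal sertraline concentration in µg/L (horizontal axis), with 1 point per library coloured by replicate letter and bars for the group mean and SD. The 3 libraries at 30623 µg/L lie above all others in both genes, and Rsub_03098 spreads from 3.27 to 5.50 at 1960 µg/L.

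The 3 libraries at 30623 µg/L did not carry the rise of the 34 genes equally. The median difference from the control mean over the 34 genes was 0.84 in replicate A, 1.55 in C and 1.78 in D. Replicate A was the lowest of the 3 in 26 of the 34 genes, C in 6 and D in 2. A difference of 1.2 was reached by 11 genes in A, 29 in C and 32 in D. In A, 7 of the genes were below 0.4, so within the range that the rule calls near the control.

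The other 694 genes that reached 1.2 at 30623 µg/L showed no such order of the libraries. Their medians were 1.71 in A, 1.70 in C and 1.79 in D, and A was the lowest library in 41.2% of them. Over all 7291 genes A was the lowest in 38.8%. Among the 75 genes that also reached 1.2 at 30623 µg/L and left the range of 0.4 only at 12249 µg/L, A was the lowest in 40.0% and the highest in 27 genes. Subsets of the 694 differed, however. In the 117 genes that left the range only at 4900 and 12249 µg/L, A was the highest library in 73. Their medians were 1.99 in A, 1.42 in C and 1.55 in D. These sets were chosen with the same libraries, so the differences between them were not tested.

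Replicate A at 30623 µg/L also stood apart over the rest of the table. Over the 7257 genes outside the 34, the median absolute difference from the mean of the 12249 µg/L libraries was 0.34 in A, 0.56 in C and 0.58 in D. From the mean of the other 2 libraries at 30623 µg/L it was 0.52 for A, 0.37 for C and 0.38 for D. Replicate A was thus nearer to the 12249 µg/L group than to its own, and the others were nearer to their own. Its median absolute difference from the control mean was 0.66, against 0.65 in C and 0.70 in D. What part the position of A had in the values of the 34 genes was not tested.

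**Figure D2:**
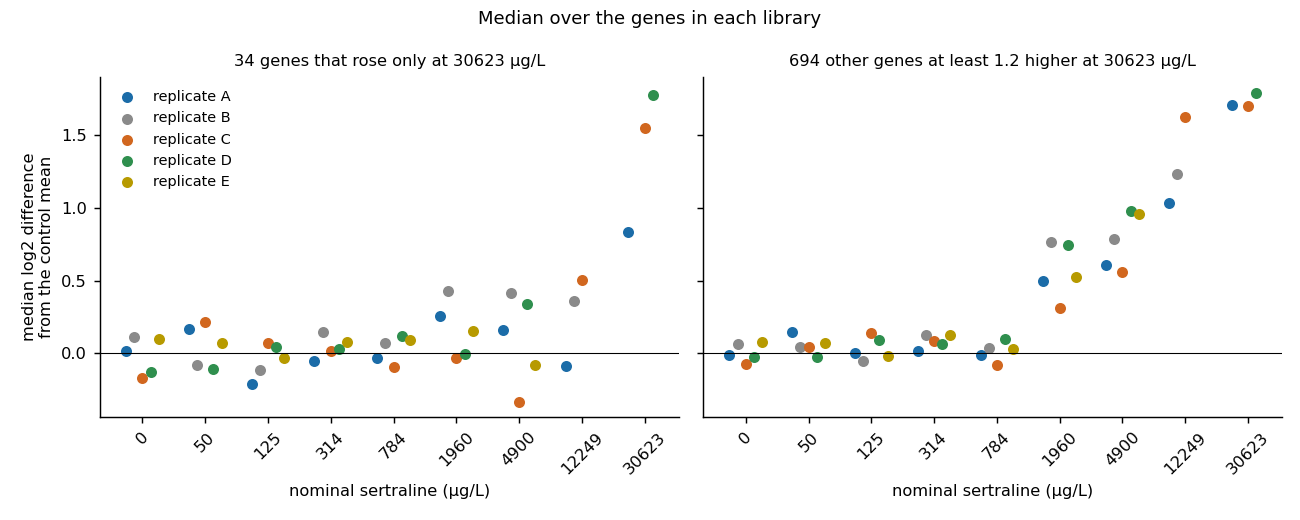
Median log2 difference from the control mean in each of 41 libraries (vertical axis) by nominal sertraline concentration in µg/L (horizontal axis), over the 34 genes (left) and over the 694 other genes at least 1.2 higher at 30623 µg/L (right), with points coloured by replicate letter. At 30623 µg/L the left panel has A at 0.84, C at 1.55 and D at 1.78, and the right panel has A at 1.71, C at 1.70 and D at 1.79.

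Which genes the rule takes, and how many, depended on single libraries. Without replicate A of 30623 µg/L the rule took 106 genes, of which 32 were among the 34. Without replicate C of 30623 µg/L it took 35, with 21 of the 34 among them, and without D it took 24, with 16. Without replicate A of 12249 µg/L it took 18, all among the 34, and without control replicate A it took 30, with 20 of the 34. With the 34 genes kept, the median at 30623 µg/L was 1.67 without A, 1.27 without C and 1.17 without D. The difference of a single gene stayed at or above 1.2 in 32 of the 34 genes without A, in 21 without C and in 16 without D, and in 12 genes whichever library was left out.

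Single genes differed in how they followed the libraries. The second highest gene was 1.55 above the control mean in A, 2.24 in C and 1.72 in D, and the fourth highest was 1.55 in A, 1.60 in C and 1.84 in D, with an SD of 0.15, the lowest of the 34. At the other end, 1 gene with a mean difference of 1.24 was -0.08 in A, 2.30 in C and 1.50 in D. Another, with a mean of 1.37, was 0.16 in A, 1.36 in C and 2.598 in D. Replicate A was the highest library in 3 genes, by most in a gene with 1.99 in A, 0.32 in C and 1.35 in D. All 3 libraries were at least 0.4 above the control mean in 26 genes and at least 1.2 above it in 6.

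**Figure D3:**
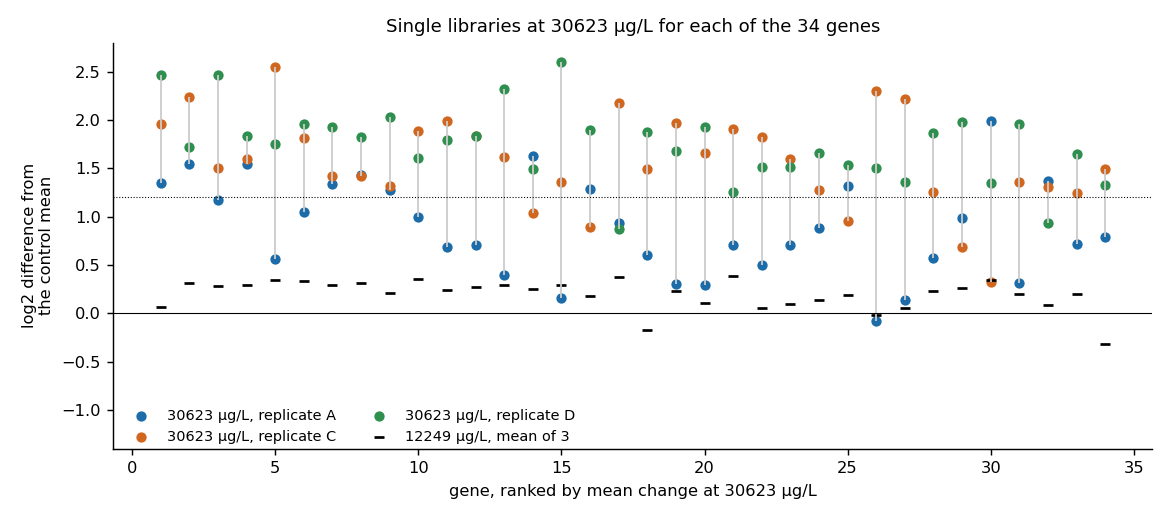
Log2 difference from the control mean (vertical axis) in each library at 30623 µg/L for each of the 34 genes, ranked by their mean (horizontal axis), with dashes for the mean at 12249 µg/L and a dotted line at 1.2. Replicate A is the lowest point in 26 genes, and the 12249 µg/L means lie between -0.32 and 0.39.

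In 27 of the 34 genes the 3 libraries at 30623 µg/L all lay above the 5 control libraries, without overlap. That is 79.4% of the 34, and this held for 19.4% of all genes. It held for 95.8% of the other 694 genes that reached 1.2 at 30623 µg/L. Among the 75 that left the range of 0.4 only at 12249 µg/L it held for 96.0%. In 15 of the 34 (44.1%) the 3 libraries lay above every one of the other 38 libraries, against 2.58% of all genes. The share was 15.4% in the 694 genes and 25.3% in the 75. In a moderated limma test, with calls at a Benjamini-Hochberg adjusted p under 0.05, all 34 genes were called higher than the control, where 25.8% of all genes were. Between 30623 and 12249 µg/L, 33 of the 34 were called higher in the same fit, where 12.9% of all genes were. The remaining gene had an adjusted p of 0.0529 in that limma test. The rule used all of these libraries, so nothing is read from the counts.

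**Figure D4:**
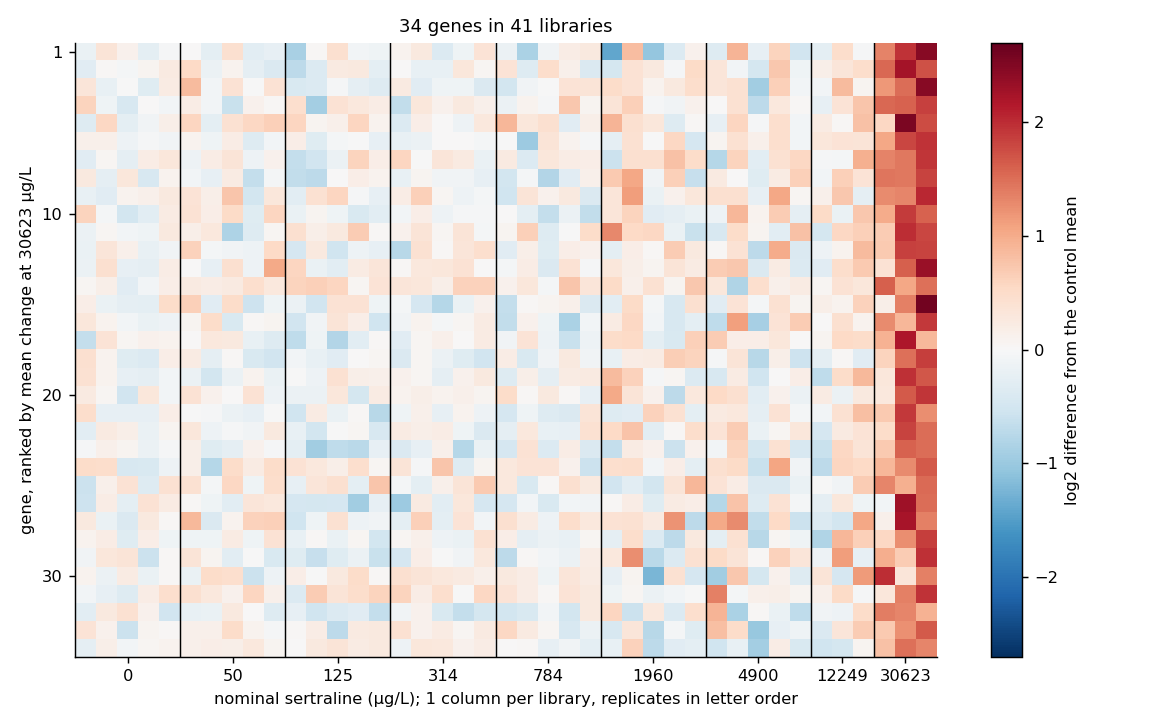
Log2 difference from the control mean (colour) for the 34 genes, ranked by their mean difference at 30623 µg/L (vertical axis), in 41 libraries ordered by nominal sertraline concentration in µg/L and then by replicate letter (horizontal axis). The 3 columns at 30623 µg/L are red in nearly all rows, with the first of them, replicate A, paler.

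At the middle concentrations the rule kept the means of the 34 genes near the control, but they did not lie evenly on both sides. At 784 µg/L 17 of the 34 genes were above the control. The number was 26 for 1960, 25 for 4900 and 31 for 12249 µg/L. Among all 7291 genes, 3768 were above the control at 784, 3636 at 1960, 3531 at 4900 and 3461 at 12249 µg/L. The medians of the 34 genes in the 4 groups were -0.01, 0.16, 0.10 and 0.24. All of these differences share the control mean that the rule used, and the lean of the 34 was not tested. Since the rule limited these differences to less than 0.4, with a median standard error of 0.25 up to 4900 and of 0.29 at 12249 µg/L, nothing is read from the limma calls (Benjamini-Hochberg) there, which included none of the 34. Of all genes, 0.741% were called higher and 2.18% lower at 784 µg/L, 9.82% and 12.3% at 1960, 14.9% and 18.8% at 4900, and 23.6% and 26.1% at 12249 µg/L. Without adjustment 2 limma p-values were under 0.05, of 1 gene higher at 1960 µg/L and of Rsub_12536, lower at 4900 µg/L. The shares of all genes were 16.4% higher at 1960 and 23.2% lower at 4900 µg/L. The gene higher at 1960 µg/L, by 0.38, lay above the control from the lowest concentration on. Its differences were 0.29 at 50, 0.45 at 125, 0.41 at 314 and 0.29 at 784 µg/L, and then 0.06 at 4900 and 0.25 at 12249 µg/L.

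Libraries of one middle concentration differed in the 34 genes together. At 12249 µg/L the median over the genes was -0.09 in A, 0.36 in B and 0.50 in C. At 4900 µg/L it was 0.16 in A, 0.42 in B, -0.33 in C, 0.34 in D and -0.08 in E, and at 1960 µg/L it was 0.25 in A, 0.43 in B, -0.04 in C, 0.00 in D and 0.15 in E. In the control it lay between -0.17 and 0.11. The spread within a group was also wider at these concentrations: the median SD of the 34 genes was 0.29 among control libraries and 0.33 among those of 784 µg/L, and then 0.44 for 1960, 0.48 for 4900, 0.44 for 12249 and 0.63 for 30623 µg/L. Over all genes these SDs were 0.24, 0.25, 0.32, 0.36, 0.34 and 0.42. The SDs at 12249 and 30623 µg/L rest on 3 libraries and the others on 5, so they are not directly comparable.

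The 50, 125 and 314 µg/L groups did not enter the rule. None of the 34 genes was called among them in a moderated F test (limma, Benjamini-Hochberg over all genes), where 0.343% of all genes were. At a share this small, no call among 34 genes is the usual outcome, so nothing is read from it. That share rests on 25 genes, and it moves with single libraries: 1 gene was called without 314 µg/L replicate E, 2 without 314 µg/L replicate D or without 50 µg/L replicate C or E, 8 without 314 µg/L replicate A and 39 without 125 µg/L replicate B. The number was 10 without 50 µg/L replicate D, and 14 and 13 without 314 µg/L replicates B and C. The smallest unadjusted p of the 34 in this F test was 0.0529, so none was under 0.05, against 2.72% of all genes. The fit shares each gene's estimate of spread over all groups. The median SD of the 34 genes was 0.31 at 50, 0.31 at 125 and 0.24 at 314 µg/L. It was 0.48 at 4900 and 0.63 at 30623 µg/L. The p-values among low concentrations may thus be larger than the low groups alone would give. Between 314 and 50 µg/L none of the 34 was called in limma's test, where 0.0137% of all genes were called higher and 0.384% lower. None had an unadjusted p under 0.05, where 1.51% of all genes did as higher and 3.06% as lower. The called genes of the table, 29 in all, fell to 7 without 50 µg/L replicate C, to 16 without D and to 18 without E. The differences of 314 minus 50 µg/L ran from -0.45 to 0.30, with a median of -0.01 and a median standard error of 0.25. Between 125 and 50 µg/L 2 of the 34 (5.88%) had an unadjusted p under 0.05 in limma, both lower at 125 µg/L. Among all genes 0.645% were lower in this way, and no gene of the table was called. Between 314 and 125 µg/L no gene of the table was called either. None of the 34 had an unadjusted p under 0.05 there, where 0.713% of all genes did as higher and 1.66% as lower.

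Against the control, whose libraries did enter the rule, the means of the 34 genes at the lowest concentrations are a description. All 34 (100%) lay within 0.4 of the control at 50 µg/L, 29 (85.3%) at 125 µg/L and 33 (97.1%) at 314 µg/L. Of all genes 97.3%, 95.4% and 93.2% did, so at 125 µg/L the share was lower among the 34. The medians were 0.05, -0.10 and 0.05. The lowest value was -0.57 and the highest 0.45, both at 125 µg/L. Unadjusted limma p-values under 0.05 belonged to 1 higher and 1 lower gene at 125 µg/L and to 1 higher gene at 314 µg/L. Each of these counts is 2.94% of the 34. Among all genes 1.56% were higher and 1.74% lower in this way at 125 µg/L, and 2.39% were higher at 314 µg/L. The higher gene was the same at both concentrations and at 1960 µg/L. None of the 34 was called at these concentrations, where no gene of the table was called at 50 or 125 µg/L, and 0.0274% were called higher and 0.699% lower at 314 µg/L.

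Pairs of the 34 genes were only weakly correlated at these low concentrations. Over the 15 libraries at 50, 125 and 314 µg/L, after subtraction of the group means, the median Pearson correlation between 2 of the 34 genes was 0.06, with quartiles of -0.14 and 0.27. Over all pairs of genes in the table the median was 0.00, with quartiles of -0.21 and 0.21. Correlations over 0.5 made up 3.92% of the pairs among the 34 genes and 4.73% of all pairs. As a set the 34 genes still moved between libraries. At 50 µg/L their median difference from the control mean was 0.17 in A, -0.08 in B, 0.22 in C, -0.11 in D and 0.07 in E. Over all genes it lay between -0.014 and 0.015 in these libraries. The 15 libraries share their preparation and scaling, and the correlations are given without a test.

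The 34 genes were weakly expressed. Their level, taken as the mean log2 value over the 15 libraries at 50, 125 and 314 µg/L, which the rule did not use, had a median of 3.57 and quartiles of 3.15 and 3.97, against 4.56, 3.78 and 5.59 over all genes. The lowest was 2.93 and the highest, Rsub_12536, 5.51. In the lowest tercile of level, which ended at 4.02, lay 26 of the 34 genes, with 7 in the middle and 1 in the highest tercile. Values of different genes are not corrected for length, but 3′ tags do not scale with it, so these levels are compared on the deposited log2 scale.

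Rises at 30623 µg/L were in general more frequent among weakly expressed genes. Of the genes in the lowest tercile 18.9% reached 1.2, of those in the middle 7.33% and of those in the highest 3.70%, where the share over all genes was 9.98%. The lowest tercile held 63.2% of all genes at or above 1.2 and 76.5% of the 34. The median difference at 30623 µg/L was 0.46 in the lowest, -0.01 in the middle and -0.61 in the highest tercile.

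The same order held among the 1724 genes that stayed within 0.4 of the control at all 4 middle concentrations. Their median difference at 30623 µg/L was 0.31 in the lowest tercile, 0.01 in the middle and -0.40 in the highest. The 34 genes were 4.02% of such genes in the lowest tercile, 1.203% in the middle and 0.202% in the highest. The same rule with a fall of 1.2 in place of the rise took 24 genes, none of them in the lowest tercile, 1 in the middle and 23 in the highest. Late rises were thus found mostly at low levels and late falls almost wholly at high levels. The part of expression level in these changes was not tested.

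**Figure D5:**
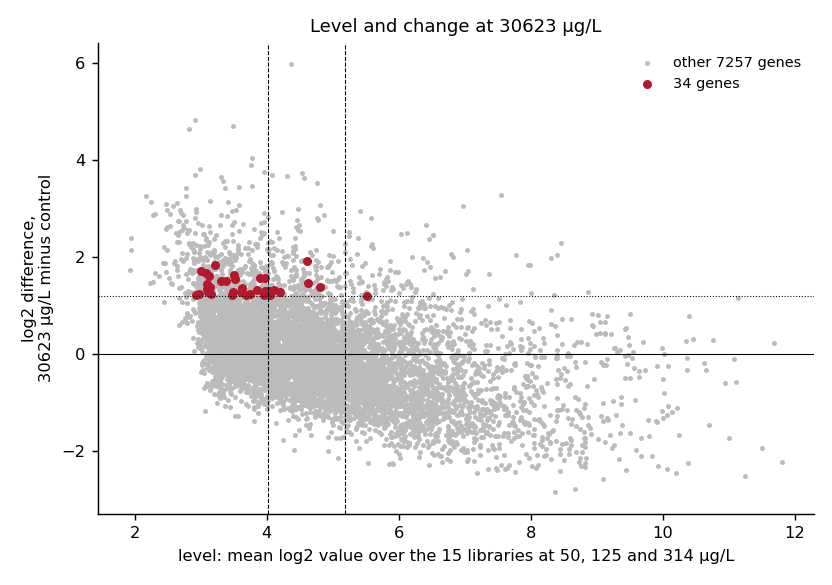
Log2 difference between 30623 µg/L and the control (vertical axis) against level, the mean log2 value over the 15 libraries at 50, 125 and 314 µg/L (horizontal axis), for the 34 genes and the other 7257 genes, with dashed lines at the borders of the terciles of level and a dotted line at 1.2. Of the 34 genes, 26 lie left of the first dashed line, and the cloud of all genes slopes downward.

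The 34 genes lay at the upper end of a continuous range. The other 621 genes of the lowest tercile that stayed within 0.4 at the middle concentrations had a median of 0.28 at 30623 µg/L, with quartiles of -0.05 and 0.59. Of these genes 443 were above the control. Their median also differed between the libraries at 30623 µg/L, with 0.03 in A, 0.38 in C and 0.41 in D. This is the order that the 34 genes showed.

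The borders of the rule cut through dense ranges of values. The lowest of the 34 genes stood at 1.20053 at 30623 µg/L, and the highest gene just outside at 1.19985. There were 15 of the 34 genes below 1.3, and 29 further genes within the middle range lay between 1.1 and 1.2. On the other border, 20 of the 34 genes had a difference of 0.3 or more in either direction at some middle concentration. A further 32 genes reached 1.2 at 30623 µg/L with their largest middle difference between 0.4 and 0.5.

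Rises that appear only at the highest concentration were a small part of the rises seen there. Of the 728 genes that reached 1.2 at 30623 µg/L, 642 were already at least 0.4 above the control at 12249 µg/L. The range of 0.4 was left at 1960, 4900 and 12249 µg/L by 316 genes, at 4900 and 12249 µg/L by 117, at 12249 µg/L alone by 75, and at no middle concentration by the 34. The median difference at 30623 µg/L was 1.92, 1.60, 1.41 and 1.32 in this order. The median step from 12249 to 30623 µg/L was 0.18, 0.04, 0.63 and 1.18. The differences share the control libraries, the steps share the 12249 and 30623 µg/L libraries, and the sets were chosen on these values.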

How the data were processed

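The table deposited by the authors holds normalized log values, taken to be log2, of 7291 genes in 41 of 45 labelled libraries. The other 4 were not analysed here. The submitters' processing notes list STAR 2.7.10a, featureCounts 2.0.6, DESeq2, fastp 0.23.2, bcl2fastq 2.20.0 and SAMtools 1.15.1. The sources used here give neither settings nor genome build, gene filter or transform. A transform that draws weak genes towards their mean would understate their changes. Values ran from 1.19 to 12.6, and library medians from 4.55 to 4.73. The table holds no counts, so depth is unknown.

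The 34 genes, the lists and the tests were chosen with earlier results of these data known. Groups come from the sample titles. One limma 3.58.1 fit (R 4.3.3) with a mean per group, 32 residual degrees of freedom and an intensity trend covered all libraries, with two-sided tests, Benjamini-Hochberg adjustment over 7291 genes and a threshold of 0.05. It was tested on simulated data. The text names 2 genes, the highest at 30623 µg/L and the most strongly expressed of the others. Lists of genes by product were not used, for want of names. Alternatives were other scalings, borders, filters and fits, and leaving out each library. Python 3.11.15 and matplotlib 3.10.9 were used.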

Additional observations from a re-analysis of the deposited data

How the results depend on the processing

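The number of genes the rule takes depended mostly on its borders and on single libraries. It was 34 as reported, 14 with a border of 0.3 and 66 with 0.5 for the middle concentrations, 95 with a minimum rise of 1.0 and 13 with 1.4, and 14 without the 25% of genes lowest in mean. When each library was left out in turn it lay between 18 (without 12249 µg/L replicate A) and 106 (without 30623 µg/L replicate A). The genes whose 30623 µg/L libraries all lay above every other library numbered 15 as reported, and 4, 30, 27, 9 and 5 under these 5 settings in the same order. Leaving out single libraries gave between 9, of the 18 genes taken without 12249 µg/L replicate A, and 93, of the 106 taken without 30623 µg/L replicate A. In the latter case only replicates C and D had to lie above the rest. The genes taken differ between these settings, so this range does not show how stable the 15 of 34 are. Over all genes the share was 2.58% as reported. Under the filter 14 genes were left to be called higher at 30623 µg/L, and all 14 were, among 1222 genes called higher in all. The rule chose these genes on the same difference, so nothing is read from this count. Without 30623 µg/L replicate C 32 of the 34 were called higher, and without D 33 were. Calls of higher genes in the whole table were 1700 and 1679 there, against 1879 as reported. The identity of the genes changed more than their number: centring took 36 genes with 28 of the 34 among them, quantile scaling 41 with 26, and group medians 41 with 14. The median of the genes taken at 30623 µg/L is held above the minimum rise by the rule, so its range of 1.148 to 1.56 says nothing about stability. No fit called any of the 34 genes among 50, 125 and 314 µg/L or between 314 and 50 µg/L. Few genes of the table were called there, so nothing is read from this. Over all genes the F test called 25 as reported, 0 without the intensity trend, 16 without the 25% of genes lowest in mean and 61 with only these groups in the fit. For 314 against 50 µg/L these numbers were 29, 16, 28 and 149.

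With the replicate letter as a replicate block, all 34 genes were called higher at 30623 µg/L, where 1864 genes of the table were. Among the low concentrations 0 of the 34 were called. There the F test called 20 genes of the table, and 314 against 50 µg/L gave 31. For the 34 genes these counts were the same as without the block. No pairing by letter was seen, which cannot show that none exists. In 149 pairs of same-lettered libraries of different groups, correlations of deviations lay between -0.24 and 0.21, with a median of 0.01. In 595 pairs with different letters they lay between -0.28 and 0.37, with a median of -0.0009. The best match in another group had the same letter for 9 of 41 libraries. The medians with the 34 genes kept were chosen after seeing the data.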
